A study of Danio rerio with 4 samples.

Results

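Caveolae are flask-shaped pits of the plasma membrane. Caveolins form the pit in the membrane, cavins coat its cytoplasmic side, and ATPases of the EHD (EH-domain containing) family act on membranes, with EHD2 placed at the caveolar neck and EHD1 and EHD3 known for recycling from endosomes. In vertebrate muscle the main caveolin is caveolin 3, whereas caveolins 1 and 2 are best known from endothelium, smooth muscle and fat. The genes described here are ehd2b, ehd2a, ehd1a, ehd1b, ehd3, cavin1a, cavin1b, cavin4a, cav1 and cav3. They were chosen by symbol, with the values of ehd2b and cavin1a known to lie far apart between the groups in opposite directions. Of these 10 genes, 8 had a row among the 18105 genes of the table, and ehd2a and cavin4a were not analysed here.

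The study profiled RNA from cells sorted from the ventricles of adult zebrafish (Danio rerio), with 2 libraries in each of 2 groups. In the myl7:EGFP+ group, a cardiomyocyte promoter (myl7) drives green fluorescent protein and 7000 cells were sorted. In the other group, tp1:EGFP+/myl7:DsRed2-NLS+ (written tp1:EGFP+ from here on), green fluorescence comes from a Notch-responsive element (tp1) and a nuclear red reporter is under the myl7 promoter. Here 2000 cells were sorted. The number of cells thus differs with the group, and its part in the values, listed 0s included, cannot be told apart from that of the group. Genes above 0 numbered 14281 and 12417 in the myl7:EGFP+ libraries and 12558 and 11516 in the tp1:EGFP+ libraries. The labels name these reporter transgenes and no treatment, and since myl7 is active in cardiomyocytes in general, myl7:EGFP+ may also hold tp1-active cells. The labels give neither fish numbers nor pooling, so p-values rest on the spread between these libraries, which may be technical. In the fit used, this spread is shared in part between genes of like abundance.

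Values are normalized read counts as deposited, and the columns summed to between 1552636 and 2130733. In the replicate 2 libraries 1 read was worth about 3.11 (myl7:EGFP+) and 2.98 (tp1:EGFP+), which puts their depth near 685344 and 685085 reads, and a listed 0 there allows up to 9.33 and 8.94. In the replicate 1 libraries the smallest value above 0 was 1, and the value of 1 read was not determined. Cardiomyocyte identity was checked with 13 marker genes, whose summed values were 42791 and 76700 in the myl7:EGFP+ libraries and 42515 and 76845 in the tp1:EGFP+ libraries. The most abundant were ttn.2, which encodes titin (18257 and 22692 against 18845 and 23416), and ttn.1, also a titin gene (14668 and 17087 against 12315 and 13852). These titin genes make up a large part of the sums, which cover 14 rows since actc1a has a further row. Library by library, the sums lay close together only when matched by replicate number, and the labels do not say that these numbers pair the libraries. Other markers differed more, such as ryr2b (2697 and 2832 against 1150 and 1040) and myh7 (2312 and 4203 against 3830 and 11924). The smaller actc1a row (37 and 289 against 145 and 611) had the highest log2 difference of the list, 1.51. These markers were named after their values were seen. No tested marker of this list passed the threshold given below. This does not show equal levels, since the errors of that fit could be wide. The log2 difference (tp1:EGFP+ minus myl7:EGFP+) was -0.28 ± 2.58 (SE) for ttn.1. Its libraries lay close together within each group, and its differences were -0.25 within replicate 1 and -0.30 within replicate 2. This wide SE thus came mainly from the fit's variance trend over abundance, so markers as abundant as ttn.1 could hardly pass. For ryr2b the log2 difference was -1.34 ± 0.47 (SE, adjusted p by limma 0.0871). The gene myl7, named after its values were seen, whose promoter drives a sorting reporter in both groups, varied more between replicates than between groups (565 and 4206 against 765 and 3916). In a sorted bulk sample, fewer cells that express a gene and less RNA per cell cannot be told apart.

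Among the caveolin genes, cav1 stood far higher in tp1:EGFP+ and cav3 differed by a ratio of 1.54. The gene cav1 (ENSDARG00000103747, chromosome 25, 18563476 to 18577586, plus strand, GRCz11), which encodes caveolin 1, had values of 49 and 81 for myl7:EGFP+ replicates 1 and 2, whereas tp1:EGFP+ replicates 1 and 2 had 1084 and 1025. Both tp1:EGFP+ libraries were far above both myl7:EGFP+ libraries, and the group means were 65.0 ± 22.6 and 1054.5 ± 41.7 (SD, n = 2), a ratio of 16.2. The log2 difference (tp1:EGFP+ minus myl7:EGFP+, on log2(value + 1)) was 4.04 ± 0.32 (SE), and it was 4.44 within replicate 1 and 3.65 within replicate 2. The muscle caveolin gene cav3 (ENSDARG00000024141, chromosome 6, 41996066 to 42003780, minus strand) had 238 and 298 in the myl7:EGFP+ libraries and 377 and 447 in the tp1:EGFP+ libraries. Its groups did not overlap, yet the gap between them was of the order of the spread within them, and its log2 difference was 0.62 ± 0.26 (SE).

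The gene next to cav1 was higher as well. The gene cav2, which encodes caveolin 2, the partner that assembles with caveolin 1, lies 1680 bp before cav1 on the same strand of chromosome 25 (18556588 to 18561795). It had values of 41 and 53 in the myl7:EGFP+ libraries and of 406 and 405 in the tp1:EGFP+ libraries. It rose by a log2 of 3.09 ± 0.26 (SE), with an adjusted p of 0.00213 by limma over all 9921 genes tested. These gene models do not overlap in the deposited coordinates.

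**Figure D1:**
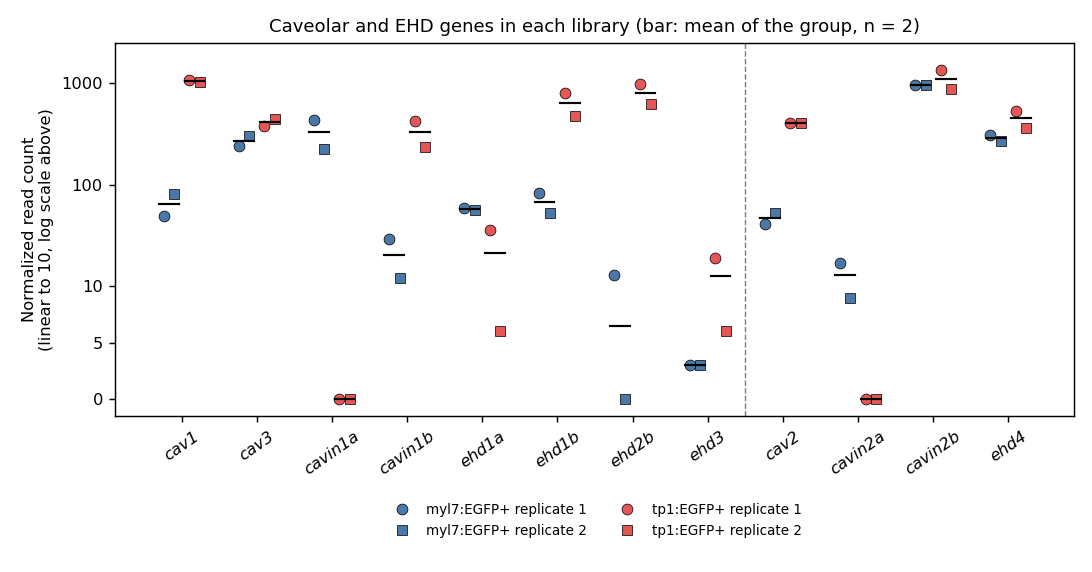
Normalized read count (vertical axis, linear to 10 and on a log scale above) of the 8 caveolar and EHD genes with a row and, right of the dashed line, of cav2, cavin2a, cavin2b and ehd4. Each point is 1 library (blue myl7:EGFP+, red tp1:EGFP+; circles replicate 1, squares replicate 2) and each bar is the mean of a group (n = 2); cavin1a is at 0 in both tp1:EGFP+ libraries, and ehd2b at 13 and 0 in the myl7:EGFP+ libraries.

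The cavin 1 genes, which encode the coat protein that caveolae need to form, went opposite ways. The gene cavin1a (ENSDARG00000076411, chromosome 3, 16976095 to 17012340, plus strand) had values of 429 and 224 in the myl7:EGFP+ libraries and a listed 0 in each tp1:EGFP+ library. In replicate 2 this was 72 reads against 0. The log2 difference was -8.28 ± 0.53 (SE), but its size rests on the pseudocount: it was -9.28 with 0.5 and -5.00 with 10 in place of 1. The gene cavin1b (ENSDARG00000059362, chromosome 24, 7631797 to 7668158, plus strand) had 29 and 12 in the myl7:EGFP+ libraries and 425 and 235 in the tp1:EGFP+ libraries. Each tp1:EGFP+ value was above each myl7:EGFP+ value, with means of 20.5 ± 12.0 and 330.0 ± 134 (SD, n = 2), a ratio of 16.1, and a log2 difference of 4.01 ± 0.54 (SE). It was 3.83 within replicate 1 and 4.18 within replicate 2.

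Put together, the reads of the cavin 1 pair came from different genes in the groups. The share of cavin1b in the pair's normalized reads was 6.33% and 5.08% for myl7:EGFP+ replicates 1 and 2, and in both tp1:EGFP+ libraries cavin1b alone had a value above 0. The sum of the pair was 458 and 236 in the myl7:EGFP+ libraries and 425 and 235 in the tp1:EGFP+ libraries. Library by library, the sums lay close together only when matched by replicate number. The labels do not say that these numbers pair the libraries. These are shares of reads and not of transcripts, since transcript lengths were not used. The neighbouring genes are a further pair of duplicates. The gene atp6v0a1a, for a proton pump subunit, ends 2969 bp before cavin1a on the same strand and had 290 and 205 in the myl7:EGFP+ libraries against 218 and 173 in the tp1:EGFP+ libraries. Its duplicate atp6v0a1b lies on the opposite strand and overlaps the start of cavin1b by 391 bp. It had 3 and 0 against 14 and 15, and without knowing whether strand was used in counting, part of these reads could belong to cavin1b.

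**Figure D2:**
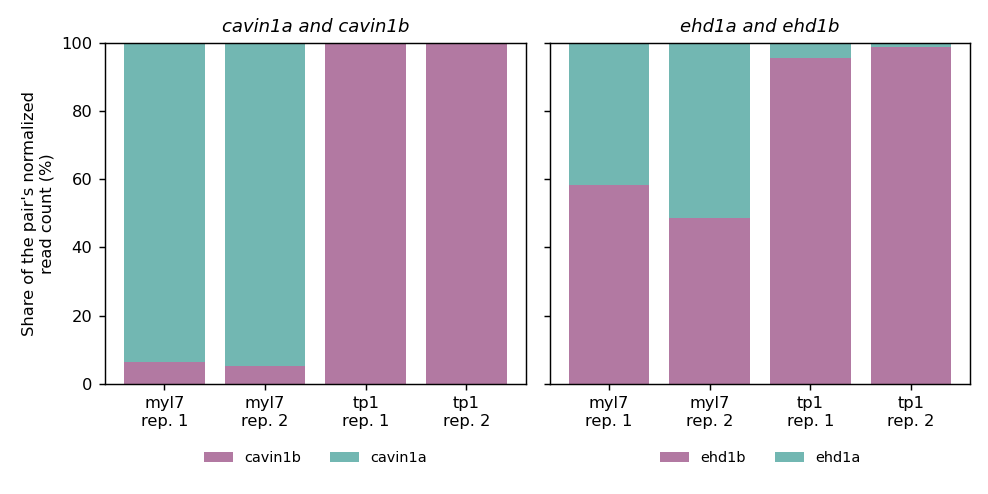
Share in percent (vertical axis) of each gene in the summed normalized read count of its pair, for each of the 4 libraries, with cavin1a and cavin1b on the left and ehd1a and ehd1b on the right. The cavin1b share is 6.33% and 5.08% in the myl7:EGFP+ libraries and fills the bar in both tp1:EGFP+ libraries, and the ehd1b share is 58.2% and 48.6% against 95.7% and 98.8%.

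Among the EHD genes, ehd2b and ehd1b were higher in tp1:EGFP+. The gene ehd2b (ENSDARG00000040362, chromosome 18, 44649804 to 44663244, plus strand) encodes an EHD2 protein and is one of the genes whose values chose the set. In myl7:EGFP+ it was near the floor, with 13 in replicate 1 and no read in replicate 2, and in tp1:EGFP+ it reached 971 and 626, the latter from 210 reads. The means were 6.50 ± 9.19 and 798.5 ± 244 (SD, n = 2), and the ratio of 123 rests on the value of 13 in 1 myl7:EGFP+ library. The log2 difference was 7.71 ± 1.27 (SE), and was 6.12 within replicate 1 and 9.29 within replicate 2. It was 5.80 without myl7:EGFP+ replicate 2 and 9.61 without myl7:EGFP+ replicate 1. The first 292 bp of the ehd2b model overlap bicra on the same strand, and bicra had 71 and 53 against 78 and 42.

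The EHD1 genes, whose mammalian counterpart drives return of receptors from recycling endosomes, differed from each other. The gene ehd1b (ENSDARG00000014793, chromosome 10, 27068251 to 27093034, plus strand) had 82 and 53 in the myl7:EGFP+ libraries and 791 and 474 in the tp1:EGFP+ libraries. The groups lay far apart, with means of 67.5 ± 20.5 and 632.5 ± 224 (SD, n = 2), a ratio of 9.37 and a log2 difference of 3.20 ± 0.38 (SE). Its differences were 3.25 within replicate 1 and 3.14 within replicate 2. Their closeness depends on matching libraries by replicate number, and the labels do not say that these numbers pair the libraries. The gene ehd1a (ENSDARG00000098853, chromosome 14, 45434680 to 45464112, minus strand) had 59 and 56 in the myl7:EGFP+ libraries and 36 and 6 in the tp1:EGFP+ libraries. The tp1:EGFP+ replicate 2 value is 2 reads, and the log2 difference of -1.86 ± 0.87 (SE) was -0.70 within replicate 1 and -3.03 within replicate 2. It was -0.66 without tp1:EGFP+ replicate 2 and -3.06 without tp1:EGFP+ replicate 1. The share of ehd1b in the reads of the pair was 58.2% and 48.6% in the myl7:EGFP+ libraries and 95.7% and 98.8% in the tp1:EGFP+ libraries.

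The remaining EHD gene with a row, ehd3 (ENSDARG00000007869, chromosome 20, 38201644 to 38241859, plus strand), was low everywhere. It had 3 and 3 in the myl7:EGFP+ libraries and 19 and 6 in the tp1:EGFP+ libraries, where the replicate 2 values stand for 1 and 2 reads. It was below the minimum mean of 10 and was not tested. In mammals EHD3 is the relative of EHD1 that is prominent in the heart.

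By limma over the 9921 genes averaging 10 or more, 34.1% of all genes passed a Benjamini-Hochberg adjusted p of 0.05, 16.1% as higher and 18% as lower in tp1:EGFP+. Of the 8 genes with a row, 7 were tested, and 4 passed as higher (cav1, cavin1b, ehd1b and ehd2b), 1 as lower (cavin1a) and 2 did not pass (cav3 and ehd1a). The values of all tested members did not overlap between the groups, as was so for 68.9% of all tested genes. This contrast chose the genes, so these counts are a description. Their log2 differences ran from -8.28 to 7.71 with a median of 3.20, beside a median of 0.01 over all genes tested and a range from the 5th to the 95th percentile of -4.45 to 3.98. Leaving out 1 library lowered the count over all genes each time. The higher members passing were 2 (cav1 and ehd2b) without myl7:EGFP+ replicate 1, 1 (cav1) without its replicate 2, and 0 without either tp1:EGFP+ library. The log2 difference of cavin1a was -7.81 without myl7:EGFP+ replicate 1 and -8.75 without its replicate 2. There its only spread within a group was between tp1:EGFP+ values both listed at 0, so its call cannot be judged stable from them. It was -8.28 without either tp1:EGFP+ library, as in the full fit, because both tp1:EGFP+ values are 0. That unchanged size is no sign of a stable call. All genes called fell to between 4.04% and 6.32% in these fits, where the lone library is assumed to vary like the other group.

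**Figure D3:**
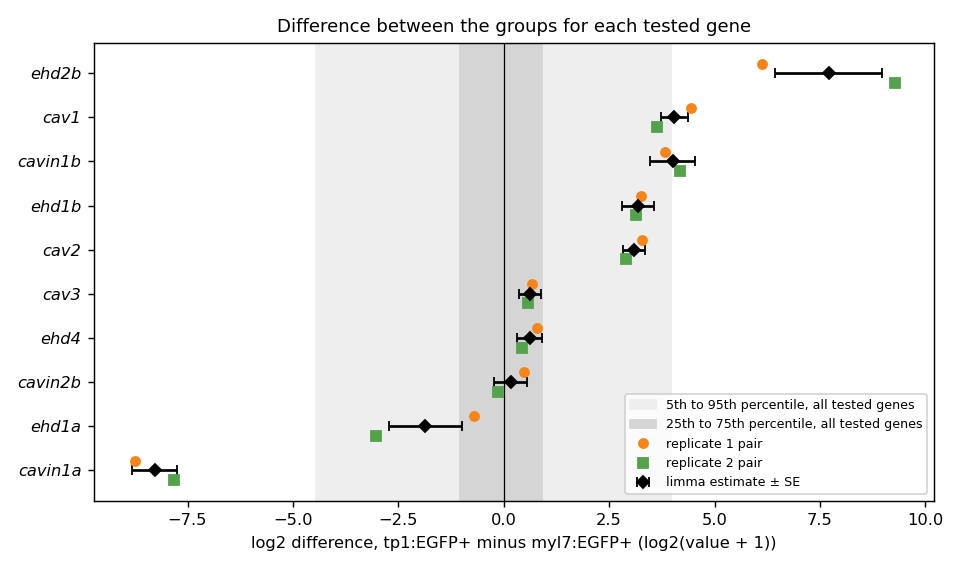
The log2 difference (horizontal axis, tp1:EGFP+ minus myl7:EGFP+ on log2(value + 1)) of each tested caveolar and EHD gene, with cav2, cavin2b and ehd4. Diamonds with bars are limma estimates with SE, circles and squares the differences within replicates 1 and 2, and the grey bands the 25th to 75th and the 5th to 95th percentiles of all tested genes; ehd2b (7.71), cav1 (4.04), cavin1b (4.01) and cavin1a (-8.28) lie beyond the 5th or 95th percentile.

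Other caveolar coat and neck genes were few. Of 10 listed, 7 had a row and 5 were tested, and 1 rose (cav2, above), 0 fell and 4 did not pass, a share of 20% called beside 34.1% of all tested genes. Their median log2 difference was 0.17. Beyond the naming rule, and chosen after their values were seen, are cavin2b, cavin2a and ehd4. The coat gene cavin2b had 959 and 964 in the myl7:EGFP+ libraries and 1334 and 876 in the tp1:EGFP+ libraries. Its groups overlap, and the log2 difference was 0.17 ± 0.39 (SE; adjusted p by limma 0.783). Its duplicate cavin2a, below the minimum mean, had 17 and 9 in the myl7:EGFP+ libraries, the latter from 3 reads, and a listed 0 in each tp1:EGFP+ library. The EHD family gene ehd4 had 307 and 270 against 533 and 364, a log2 difference of 0.61 ± 0.30 (SE; adjusted p by limma 0.176).

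Among partners of EHD proteins and recycling endosome genes, the share called was near that of all genes (34.1%). Of 24 listed, 18 had a row and 14 were tested, of which 3 rose and 2 fell (35.7% called, median log2 0.24). The genes ehbp1l1a and ehbp1l1b encode EH-domain binding proteins of one family and differed from each other in sign. The first fell from 291 and 264 to 62 and 27 (log2 difference -2.73 ± 0.45, SE; adjusted p by limma 0.0115). The second rose from 168 and 124 to 697 and 581 (log2 difference 2.13 ± 0.28, SE; adjusted p by limma 0.00613). The small GTPase genes of recycling and endosome traffic rab11bb and rab35b rose, from 1 and 0 to 45 and 60 and from 21 and 25 to 101 and 143 (adjusted p by limma 0.00335 and 0.00985). By contrast rab8a, for a GTPase of membrane delivery that EHD1 is linked to in mammals, fell from 14 and 22 to 1 and 3 (adjusted p by limma 0.0202). It lies at the minimum mean of 10 and did not pass with quantile normalization (0.0758), and its log2 difference of -2.72 was -1.21 with a pseudocount of 10. That of rab11bb was 5.23, and 2.57 with a pseudocount of 10.

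Plasma membrane and transverse tubule genes of muscle, where caveolin 3 also resides, were tested next. Of 24 listed, 23 had a row and 20 were tested, with 1 higher and 1 lower (10% called, beside 34.1% of all tested genes; median log2 -0.44). The sarcoglycan gene sgca rose from 1 and 0 to 60 and 24 (log2 difference 4.79 ± 0.66, SE; adjusted p by limma 0.00709). This size rests on the pseudocount over values of 1 and 0, and was 2.22 with a pseudocount of 10. The ankyrin gene ank2a, for a membrane anchor of channels and transporters, fell from 201 and 99 to 5 and 9 (log2 difference -4.20 ± 0.56, SE; adjusted p by limma 0.0064).

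Flotillins, which scaffold membrane domains without caveolae, were listed with other raft genes. Of 10 listed, 7 had a row and 6 were tested, with 3 higher and 0 lower (50% called, beside 34.1% of all tested genes; median log2 1.14). The flotillin genes flot1a and flot2a rose from 0 and 0 to 41 and 9 and from 59 and 47 to 143 and 122 (adjusted p by limma 0.0131 and 0.0261). The stomatin gene stom rose from 39 and 56 to 144 and 110 (adjusted p by limma 0.0327). With columns scaled to a common total, flot2a and stom did not pass (adjusted p by limma 0.1 and 0.0714), nor did stom without a filter on low values (0.0507). The fitted log2 difference of flot1a was 4.36, and 1.64 with a pseudocount of 10. The gene flot1b, named after its values were seen, had 528 and 501 against 1046 and 978 and just missed the threshold (log2 difference 0.97 ± 0.29, SE; adjusted p by limma 0.0591).

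Clathrin coat genes, the other main endocytic coat, had a share called near that of all genes (34.1%). Of 25 listed, 21 had a row and 18 were tested, and 4 rose and 2 fell (33.3% called, median log2 0.42). The heavy chain gene cltca fell from 689 and 743 to 160 and 203 (log2 difference -1.98 ± 0.26, SE; adjusted p by limma 0.00615), and fcho2, an early factor of coated pits, fell from 188 and 171 to 60 and 83 (adjusted p by limma 0.0233). The membrane-bending adaptor gene epn2 rose from 152 and 112 to 656 and 533 (log2 difference 2.17 ± 0.28, SE; adjusted p by limma 0.00596). The scaffold gene itsn1 rose from 21 and 22 to 83 and 83, the assembly gene picalma from 128 and 121 to 300 and 226, and the light chain gene clta from 116 and 112 to 191 and 224 (adjusted p by limma 0.0155, 0.0337 and 0.0477). The calls of clta and picalma were not stable: with all libraries kept, clta did not pass in 6 of 10 alternatives (adjusted p by limma 0.0532 to 0.157 in these) and picalma in 3 (0.0569 to 0.12). The gene fcho2 did not pass with columns scaled to a common total (0.0555). A further heavy chain gene, cltcb, named after its values were seen, had 311 and 258 against 63 and 143. It just missed the threshold (log2 difference -1.57 ± 0.44, SE, adjusted p by limma 0.0507). With all libraries kept, cltcb did not pass in 4 of 10 alternatives. The 5 lists together had 12 genes that rose and 5 that fell among 63 tested (27% called). Without 1 library at most 1 gene in each direction passed.

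**Figure D4:**
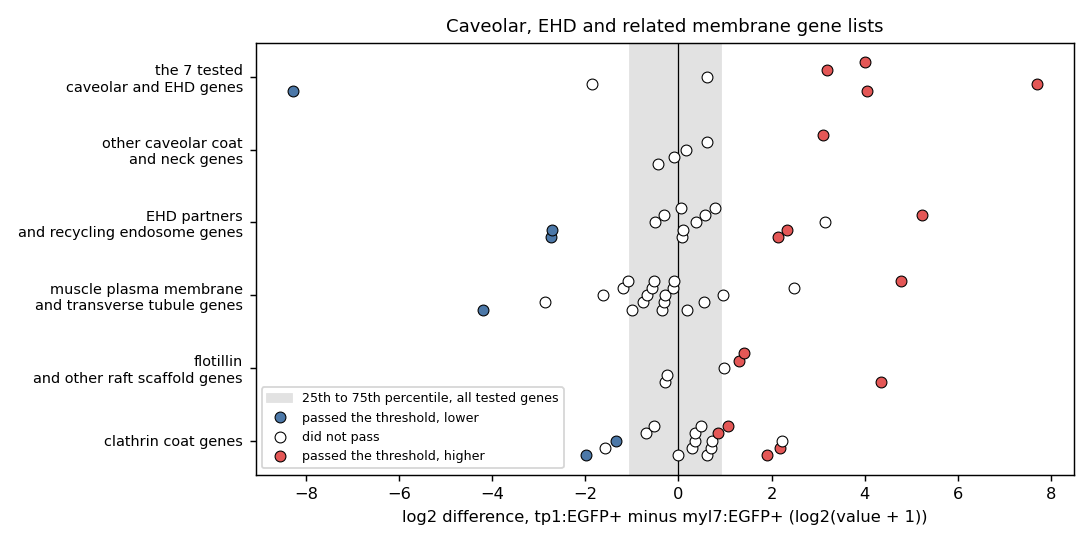
The log2 difference (horizontal axis, tp1:EGFP+ minus myl7:EGFP+ on log2(value + 1)) of every tested gene in the 5 lists and of the 7 tested caveolar and EHD genes, 1 point per gene, spread vertically for legibility. Red and blue points passed the limma threshold as higher or lower, white points did not. Called were 10% of the 20 tested muscle membrane genes and 50% of the 6 tested raft genes, beside 34.1% of all tested genes.

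Markers of other cell types also differed between the groups, endothelial markers mostly lower in tp1:EGFP+ and mural markers higher. Of 16 endothelial and endocardial markers, 12 were tested by limma, 8 fell and 2 rose (cldn5b and pecam1, named after their values were seen), and their summed values were 832 and 543 in the myl7:EGFP+ libraries and 201 and 153 in the tp1:EGFP+ libraries. Among them cdh5 (endothelial cadherin) had 212 and 112 against 22 and 12 and kdrl (a growth factor receptor) 190 and 118 against 25 and 21. The markers tie1, tek, plvapb, fli1a and erg had a listed 0 in each tp1:EGFP+ library. Of these, tek (12 and 0) and plvapb (19 and 12) were low in myl7:EGFP+ as well. Conversely, cldn5b (29 and 27 in tp1:EGFP+) and pecam1 (19 and 30) had a listed 0 in each myl7:EGFP+ library. Beside the counts given here, 16.1% of all tested genes passed as higher and 18% as lower. Of 11 mural and smooth muscle markers, 10 had a row, and all 7 tested rose. Their summed values were 350 and 282 in the myl7:EGFP+ libraries and 2494 and 4359 in the tp1:EGFP+ libraries, the most abundant being the smooth muscle actin gene acta2 (128 and 134 against 1083 and 3022) and tagln, an actin-binding gene (24 and 6 against 451 and 510). In myl7:EGFP+, myh11a, pdgfrb, mylka and rgs5a were listed at 0 in both libraries. Their tp1:EGFP+ values were 60 and 48, 19 and 27, 7 and 6, and 9 and 9 in this order. Those of mylka and rgs5a, which were not tested, lie within what a listed 0 allows in myl7:EGFP+ replicate 2 (up to 9.33). Epicardial and fibroblast markers summed to 102 and 132 against 184 and 204. The most abundant were the collagen genes col1a2 (65 and 87 against 22 and 42) and col1a1b (4 and 9 against 55 and 54). At 0 in each tp1:EGFP+ library were wt1b, lum and dpt. These were low in myl7:EGFP+ as well (4 and 0, 5 and 0, and 0 and 3). At 0 in each myl7:EGFP+ library were fn1b (29 and 24 in tp1:EGFP+) and postnb (2 and 6). Erythrocyte markers summed to 27 and 22 against 158 and 346. In tp1:EGFP+ they were led by the globin genes hbba1 (1 and 0 against 53 and 113 for its larger row) and hbba2 (0 and 0 against 41 and 86). The marker slc4a1a, named after its values were seen, went the other way (25 and 22 against 11 and 18) and did not pass. It held most or all of the myl7:EGFP+ sums. Leukocyte and thrombocyte markers summed to 28 and 46 against 136 and 170, of which thbs1b alone, a thrombospondin gene, held 134 and 167 in tp1:EGFP+, and cd74b had 23 and 37 against 1 and 0. The leukocyte markers ptprc, coro1a and mpeg1.1 were at 0 in every library of both groups. The markers mpx (2 and 9 in myl7:EGFP+) and cd74a (1 and 0) were at 0 in each tp1:EGFP+ library. The part of such cells in the values of cav1, cav2, cavin1a, cavin1b and ehd2b was not tested.

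The genes nearest to ehd2b and to cavin1a in pattern were ranked by Euclidean distance of log2(value + 1) over the 4 libraries. Nearest to ehd2b were elmo1 (distance 2.54; 7 and 0 in the myl7:EGFP+ libraries, 270 and 212 in the tp1:EGFP+ libraries), emilin1b (2.83), tubgcp5 (2.93), uvrag (2.99) and ftr82 (3.09). Nearest to cavin1a was scn5lab, at a distance of 0.12, followed by igf1rb (0.36), steap4 (0.50), scn3b (0.72) and gja5b (0.80). Each of these 5 had a listed 0 in each tp1:EGFP+ library, as had 3.47% of all tested genes. With 4 libraries in 2 groups, any gene that differs in like size between the groups is near, so these distances describe level and direction only.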

How the data were processed

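The authors deposited a score per gene and library: read counts after normalization, printed without decimals, with 18105 Ensembl genes on 25 chromosomes. They are not raw counts. The submitters' processing notes name DESeq2 1.26.0, Subread 1.6.5 with featureCounts, STAR 2.6.1d and Trimmomatic 0.39, with the builds danRer11 and GRCz11. No source used here gives their settings or says how strand and multi-mapping reads were handled. RNA was amplified as full-length cDNA before library preparation, per the labels' protocols.

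The 4 columns were used as deposited, and 1 was added before taking log2. The 9921 genes averaging 10 or more were tested with limma 3.58.1 (R 4.3.3, trend on), and p-values were adjusted by Benjamini-Hochberg over all of them. Fold changes on this scale understate the change of low genes. The fit was also run on simulated data, drawn with independent errors of the same spread for all genes. In the real data, deviations of same-numbered libraries were correlated (r = 0.442). The simulation therefore does not vouch for the p-values given here. In the replicate 2 columns, the value of 1 read was found from the spacing of values up to 300, of which 99.9% and 98.8% were exact rounded multiples. Whole reads were not recovered in the replicate 1 columns, so no count model was fitted. Tables were handled with Python 3.11.15, numpy 2.4.6 and pandas 2.3.3, and plots drawn with matplotlib 3.10.9.

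The members, the 5 gene lists and the marker lists were chosen with earlier results of these data known. The genes named were all members, the called genes of each list (at most 6 by smallest p), the 5 genes nearest in pattern to ehd2b and to cavin1a, clone names left out, and the most abundant markers. Further genes are marked in the text. Gene names came from the deposited table.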

Additional observations from a re-analysis of the deposited data

How the results depend on the processing

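The log2 differences of the 7 tested members kept their sign under every alternative run, except that ehd1a falls below a minimum mean of 50 and has no value there: pseudocounts of 0.5 and 10, no filter on low values or a mean of at least 50, trimmed mean of M values, quantile and common-total scaling, a fit without trend or with robust variances, a replicate block, and each library left out. The cause of each change below was not tested. With a mean of at least 50, where fewer genes were tested, 709 genes were higher and 634 lower, against 1599 and 1783 in the reported fit. Without a filter, where 16374 genes were tested against 9921, 9 genes of the 5 lists were lower, against 5. These counts cover different sets of tested genes. With the replicate block, 2845 genes were higher and 2876 lower, members called were 5 and 2 (adding cav3 and ehd1a), and genes of the 5 lists 24 and 16. The labels do not say that the replicate numbers pair the libraries, and only 2 pairs exist; the deviations of replicate 1 from its group mean correlated across genes between the groups (r = 0.442). Leaving out 1 library gave 69 to 271 genes higher and 137 to 365 lower over all genes, 0 to 2 and 0 to 1 members, and 0 to 1 and 0 to 1 genes of the 5 lists. The sign of cavin2b reversed without tp1:EGFP+ replicate 1 (log2 -0.13; without its replicate 2 it was 0.47). The low depth of the replicate 2 libraries limits values below about 9, that is 3 reads.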

Other observations

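Opposite calls of duplicate genes, as for cavin1a with cavin1b and ehbp1l1a with ehbp1l1b, were counted over the table. Of 868 pairs of tested genes whose symbols differ only in a final a or b, 41 (4.72%) had one gene called higher and the other lower by limma, and 54 (6.22%) had both called in the same direction. The pair ehd1a and ehd1b is not among the first, since ehd1a did not pass.

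The deposited annotation gives the pathway term Endocytosis to 6 of the 8 members with a row (both caveolin genes and the 4 EHD genes) and not to the cavin genes. Of the other genes with this term, a set chosen after the data were seen, 199 of 262 were tested, 37 were higher and 35 lower in tp1:EGFP+ by limma. This is 36.2% called, beside 34.1% of all tested genes, with a median log2 difference of 0.20.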
